A study of Mus musculus with 6 samples.

Results

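Solute carriers are the membrane proteins that move amino acids, sugars, ions, metals, nucleosides, vitamins and lipids across cell and organelle membranes without hydrolysing ATP themselves, and their genes carry symbols that start with Slc. The 195 genes described here are the rows of the count table whose symbol starts with Slc and whose raw count averaged at least 20 over the 6 samples, out of 16281 rows in all and 348 Slc rows. The other Slc rows were 146 with a mean under 20, of which 18 passed the filter on low counts, and 7 that were left out by name (Slc2a1, Slc2a3, Slc2a6, Slc16a1, Slc16a3, Slc25a20 and Slc7a11). Apart from these names, the genes were chosen by their mean raw count over both groups. Slc36a3 and Slc5a8 lay just above the minimum with mean counts of 21.2 and 21.8, and Slc8a1 and Slc12a8 just below it with 18.5 and 18.7. The genes belong to 48 Slc families. By their names 3 of them are not carriers: Slc7a6os, Slc9a3r1, which encodes the scaffold protein NHERF1, and Slc4a1ap, which encodes kanadaptin. Except in the groups by what is carried, counts, sums and shares of carriers below include these 3.

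RNA was sequenced from spleen CD8+ T cells of OT1 mice, C57BL/6 animals with the transgene Tg(TcraTcrb)1100Mjb, whose T cells carry a single receptor against an ovalbumin peptide. In both groups the cells were activated for 48 h on bound anti-CD3 with soluble anti-CD28 and IL-2, then grown with IL-2 for 3 days. The GSK group (n = 3) received GSK2879552, an inhibitor of the histone demethylase LSD1, at 0.5 μM in both phases, and the Veh group (n = 3) received the vehicle. The cells came from 3 separate mice, and the labels do not say which GSK and Veh samples share a mouse, so p-values measure the spread between these samples. A single receptor and growth in culture limit these cells as a model of T cells in an animal. In bulk RNA, fewer cells of a type and less RNA per cell cannot be told apart.

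A resting T cell takes up little, and an activated one takes up glucose, leucine, glutamine, arginine, nucleosides, iron and zinc as it grows and divides. The heavy chain Slc3a2 pairs with Slc7a5 to bring in large neutral amino acids, Slc1a5 and Slc38a2 bring in glutamine and other neutral amino acids, and Slc7a1 brings in arginine. Slc25 carriers sit mostly in the inner mitochondrial membrane, many Slc35 carriers bring nucleotide sugars into the endoplasmic reticulum and Golgi, Slc39 proteins bring zinc into the cytosol, and Slc30 proteins take it out.

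Promoter sequence is shown for the 3 genes at the ends of the range of called changes, Slc4a10 with the largest rise among the called carriers and Slc43a1 and Slc27a1 with the largest falls. The sequences come from RefSeq promoter windows (GRCm38.p6), which run from 250 bases before to 50 bases after an annotated start, and are printed 5′ to 3′ on the plus strand, which is the strand of all 3 genes. Capitals mark CACGTG, the E-box read by factors of the MYC, MITF and USF families. The Slc4a10 stretch, chr2:62046265-62046461, and the Slc27a1 stretch, chr8:71568621-71568870, lie before the first annotated exon. The Slc43a1 stretch, chr2:84840249-84840274, is the motif with 10 bases on each side, and the motif begins 64 bases before that RefSeq start. It lies inside the gene's annotated span, chr2:84838850-84863594, and not before the first annotated exon.
Slc4a10: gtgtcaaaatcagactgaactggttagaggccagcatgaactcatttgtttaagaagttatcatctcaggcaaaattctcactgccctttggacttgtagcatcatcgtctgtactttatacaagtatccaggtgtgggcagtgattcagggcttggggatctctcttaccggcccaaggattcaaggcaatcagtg
Slc43a1: ggtctccctcCACGTGgcagccgtgg
Slc27a1: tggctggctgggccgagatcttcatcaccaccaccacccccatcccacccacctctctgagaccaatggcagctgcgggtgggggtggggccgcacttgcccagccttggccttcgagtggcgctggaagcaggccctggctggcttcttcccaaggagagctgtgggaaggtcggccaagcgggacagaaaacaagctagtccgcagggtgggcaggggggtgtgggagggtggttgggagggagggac

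Of the 195 genes, 148 had a RefSeq promoter window and 47 did not, Slc15a3, Slc7a3, Slc14a1 and Slc16a5 among them. CACGTG, searched on both strands, was present in 26 of the 148, or 17.6%, against 11.7% of all tested genes with a window. Its core ACGTG, which every CACGTG also holds, was present in 50 carriers, or 33.8%, against 29.6% of tested genes, and in 5 of the 11 called carriers with a window (Slc15a1, Slc35f5, Slc43a1, Slc27a1 and Slc41a2). TGATGNAA, the element read by ATF4 with C/EBP proteins, was present in 5 carriers, or 3.38%, against 2.72% of tested genes, and in 0 of the 11. Slc27a1 has 3 windows, and its CACGTG begins 202 bases before the start of another window than the one printed. These matches are descriptions of letters in a window and not of sites in use.

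The libraries held from 18288447 to 19846720 counts each. CPM, counts scaled to a common library total and here summed over a list, of the CD8 T cell markers, of which 5 of 6 were in the table, ranged from 1937 to 2036 in Veh and from 1752 to 1869 in GSK. Markers of other cells were low and 3 lists were lower in GSK: 5 of 7 myeloid markers summed to 2.79 to 4.68 CPM in Veh and 1.30 to 2.73 in GSK, 3 of 3 dendritic markers to 3.27 to 4.84 and 1.77 to 2.62, and 2 of 3 platelet markers to 1.47 to 2.26 and 0.682 to 1.20. Natural killer markers summed to 1.52 to 2.36 CPM in Veh and 2.33 to 3.73 in GSK, B cell markers to 5.78 to 7.94 and 5.53 to 6.53, CD4 T cell markers to 3.47 to 5.00 and 3.59 to 5.46, and erythroid markers to at most 0.272 in any sample. No listed marker in the table was at 0 in all samples, and the part of these cells in the results below was not tested.

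The GSK samples also differed among themselves in transcripts of kidney epithelium. A list of 21 kidney genes, written after the values were seen and holding Slc34a1 and Slc12a3, summed to 23.1, 23.2 and 24.2 CPM in Veh replicates 1 to 3, to 2.83 and 3.04 in GSK replicates 1 and 2, and to 31.0 in GSK replicate 3. Of the 21, 14 had 0 counts in GSK replicates 1 and 2 and a count in each of the other 4 samples. Lrp2, the endocytic receptor megalin of the kidney tubule, was at 7.67, 6.12 and 7.41 CPM in Veh, at 0 and 0.101 in GSK replicates 1 and 2, and at 9.96 in GSK replicate 3. The Veh samples and GSK replicate 3 thus carried these transcripts and the other 2 GSK samples nearly lacked them. Effect sizes are therefore also given for GSK replicate 3 alone against Veh, an alternative chosen after seeing the data. Genes past a threshold are not counted there, since no spread within GSK can be measured.

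Groups were compared with edgeR's quasi-likelihood test and Benjamini-Hochberg adjustment over the 11698 genes that passed its filter on low counts, and all 195 genes described here passed. A gene that passed an adjusted p of 0.05 is said to have risen or fallen, and one that also passed a fold change of 1.5 is said to be called. CPM divide each count by the sample's TMM-scaled total, and coordinates are those of GENCODE M21 on GRCm38. Of the carriers, 5 were called higher in GSK, or 2.56%, where 2.22% of all tested genes were, and 10 were called lower, or 5.13%, where 4.09% of all tested genes were. In either direction that is 15 carriers, or 7.69%, against 6.32% of tested genes. At the adjusted p alone 69 carriers passed, or 35.4%, against 32.1% of tested genes. Of these 41 rose, or 21.03%, against 16.6% of tested genes, and 28 fell, or 14.4%, against 15.5%, and the remaining 126 did not pass. The 41 include 2 of the 3 genes that are not carriers. The count of 41 was 26 without GSK replicate 1, without GSK replicate 3 or without Veh replicate 3. The share of all tested genes in those smaller fits is not given here, so the 26 cannot be set against the 16.6%. All GSK samples lay above all Veh samples for 50 carriers, or 25.6%, against 23.7% of tested genes, and below them for 42, or 21.5%, against 23.0%. These shares are descriptions beside the genes at large, the share that rose was the farthest from its background, and no test of the carriers as a set was made. Their median log2 fold change was 0.025, against -0.0039 over all tested genes. Of the 195, 174 stayed within 1.5-fold, or 89.2%, against 90.3% of all tested genes. With GSK replicate 3 alone the median log2 fold change of the carriers was 0.034.

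The carriers together took between 0.940% and 0.950% of all counts in Veh and between 0.958% and 0.979% in GSK. Their CPM summed to 9355, 9444 and 9357 in Veh and to 9777, 9623 and 9891 in GSK, or 9385 ± 51.2 and 9764 ± 135 (SD, n = 3 each), and the groups did not overlap. An exact permutation test of a single value with 3 samples against 3 cannot give a p under 0.1 (two-sided). Per kilobase of exon, the scale used here to compare genes with each other, levels ran from 0.118 to 394 CPM per kb with a median of 4.42, and the 5 highest genes held 34.8% of the sum. Between replicates the median coefficient of variation of a carrier's CPM was 6.75% in Veh and 7.82% in GSK.

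The called carriers were mostly low ones. Of the 15 called carriers, 14 were below the median level of 4.42 CPM per kb. Of the 49 carriers under 1.51 CPM per kb 20.4% were called, and 15.7% of all tested genes of that level were. Of the 49 above 10.2 CPM per kb 2.04% were called, against 2.22% of tested genes of that level, while 55.1% rose or fell at the adjusted p alone, against 40.6%.

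**Figure D1:**
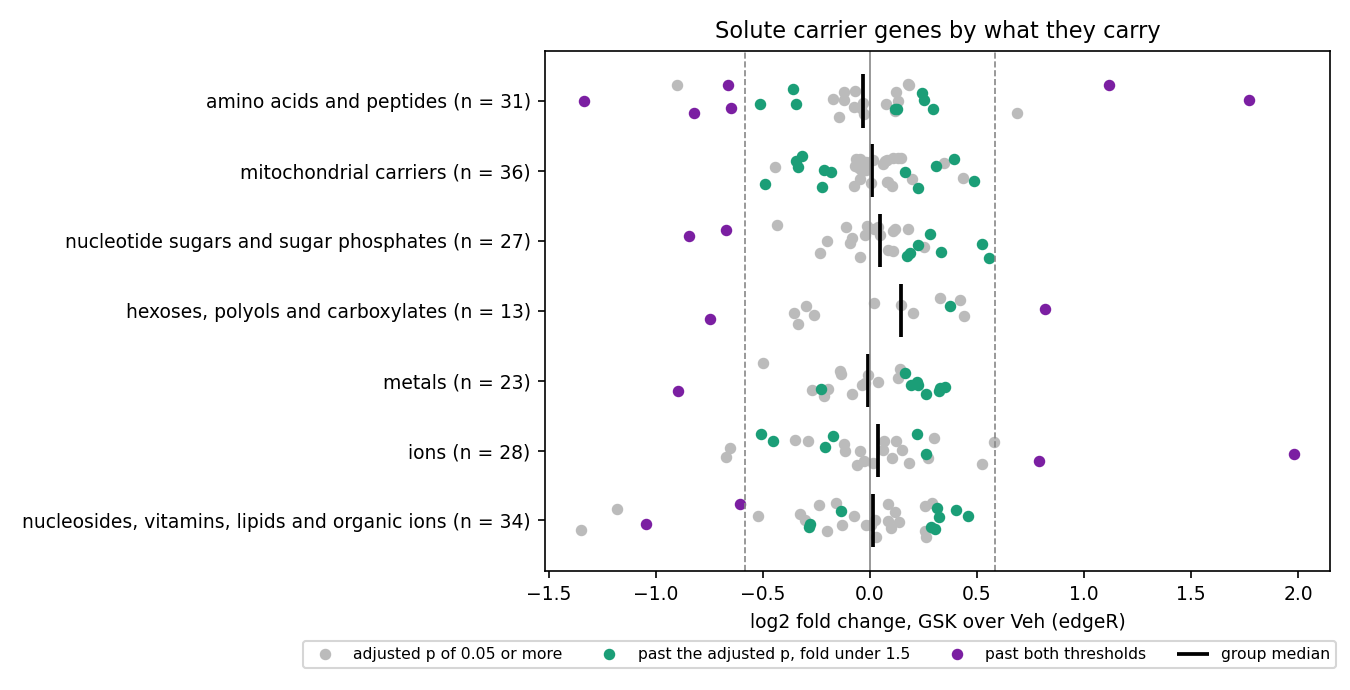
Log2 fold change (GSK over Veh, edgeR) on the horizontal axis for 192 carriers, 1 point a gene, in 7 groups by what the family carries, with dashed lines at a fold change of 1.5 and a black bar at each group's median. Group medians lie between -0.033 and 0.15, 15 points are past both thresholds, and no mitochondrial carrier is beyond 1.5-fold.

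Among the 31 carriers of amino acids and peptides, 2 were called higher and 4 lower, and at the adjusted p alone 7 rose, 7 fell and 17 did not pass. That is 6.45% called higher and 12.9% called lower, against 2.22% and 4.09% of all tested genes. At the adjusted p alone 22.6% rose and 22.6% fell, against 16.6% and 15.5%. Both genes called higher carry peptides. Slc15a1 (PepT1, chr14:121459621-121505252), a proton-coupled carrier of short peptides best known from the gut, was at 7.07, 8.69 and 6.15 CPM in Veh and at 18.1, 14.1 and 15.3 in GSK, so that every GSK sample was above every Veh sample. It was 2.17-fold higher (log2 1.11 ± 0.14 SE, adjusted p = 0.000112). Slc15a3 (chr19:10839727-10859362), which carries histidine and peptides across the membrane of endosomes and lysosomes, was at 1.47, 1.66 and 0.998 CPM in Veh and at 5.04, 5.16 and 3.91 in GSK, again without overlap. It was 3.41-fold higher (log2 1.77 ± 0.24 SE, adjusted p = 0.000204), and its exons overlap Tmem132a on the opposite strand. The libraries were stranded and the strand setting of the counting is not given in the sources used here, so reads of the 2 genes may not have been told apart. Slc15a2 (PepT2) did not follow: it was at 8.76, 14.8 and 10.7 CPM in Veh and at 8.61, 5.87 and 3.81 in GSK, with a log2 fold change of -0.90 (adjusted p = 0.0712; DESeq2 adjusted p = 0.00182).

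The amino acid carriers called lower were all under 3 CPM per kb. Slc43a1 (LAT3, chr2:84838850-84863594), which carries branched-chain and other neutral amino acids without sodium, was at 4.62, 4.51 and 3.94 CPM in Veh and at 1.89, 1.77 and 1.51 in GSK, and fell by 1.33 on the log2 scale (SE 0.21, adjusted p = 0.000520). The lowest Veh sample was above the highest GSK sample by more than the whole range of either group. Slc7a3 (chrX:101079210-101086020), a carrier of arginine and lysine, was at 11.2, 12.3 and 15.2 CPM in Veh and at 7.56, 7.14 and 7.25 in GSK, and fell by 0.82 (SE 0.13, adjusted p = 0.000607). Its 3 GSK values lay close together and below every Veh value. Slc6a19 (B0AT1, chr13:73679745-73704865), the neutral amino acid carrier of gut and kidney epithelium, was at 7.13, 6.44 and 7.04 CPM in Veh and at 4.31, 4.81 and 4.02 in GSK, and fell by 0.65 (SE 0.15, adjusted p = 0.00599). GSK replicate 3 had the lowest value of the 6 samples, and any part of the kidney transcripts in these values was not tested. Slc6a9 (GlyT1, chr4:117834506-117875198), a glycine carrier, was at 9.19, 9.60 and 9.14 CPM in Veh and at 7.88, 5.01 and 4.75 in GSK, and fell by 0.66 (SE 0.18, adjusted p = 0.0126). The groups did not overlap, GSK replicate 1 lay nearer to Veh than the others, and exons of Gm17114, Ccdc24 and B4galt2 overlap the gene on the opposite strand.

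The carriers known to feed activated lymphocytes were more abundant, at 13.2 to 118 CPM per kb, and differed by less than 1.5-fold. Slc7a5 (LAT1), at 118 CPM per kb the highest amino acid carrier, was at 365, 424 and 387 CPM in Veh and at 492, 440 and 513 in GSK, and rose 1.23-fold (log2 0.30, 95% interval 0.15 to 0.44, adjusted p = 0.00692). Its lowest GSK sample was above its highest Veh sample. The arginine carrier Slc7a1 was at 207, 219 and 200 CPM in Veh and at 260.5, 232 and 253 in GSK and rose (log2 0.25, adjusted p = 0.00257), and Slc7a6 (y+LAT2), which exchanges arginine for neutral amino acids, rose from 55.0 ± 0.922 to 65.2 ± 0.940 CPM (SD, n = 3 each; log2 0.24, adjusted p = 0.00311). Slc38a1, a sodium-coupled carrier of glutamine, passed narrowly (log2 0.13, adjusted p = 0.0450), and it did so only without GSK replicate 2 when each sample was left out in turn (adjusted p from 0.0064 to 0.176). The heavy chain Slc3a2 did not pass (log2 0.13, 95% interval 0.015 to 0.25, adjusted p = 0.0797).

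The glutamine carriers Slc1a5 (ASCT2) and Slc38a2 (SNAT2) did not pass either, and their intervals were narrow. Slc1a5 was at 299 ± 0.310 CPM in Veh and 293 ± 11.9 in GSK, with a log2 fold change of -0.03 (95% interval -0.12 to 0.057), and Slc38a2 was at 229 ± 3.36 and 224 ± 6.85 CPM, with a log2 fold change of -0.03 (95% interval -0.12 to 0.061). As folds of GSK over Veh the intervals ran from 0.919 to 1.04 and from 0.921 to 1.04. Slc43a3, placed here by its family and known as a carrier of purine nucleobases, fell by 0.36 (adjusted p = 0.00154), from 69.0 ± 3.48 to 53.8 ± 4.51 CPM. Its family members Slc43a2 (LAT4, log2 -0.34, adjusted p = 0.00220) and Slc43a1 also fell, so all 3 tested genes of the family were lower in GSK. Slc38a9, the lysosomal arginine sensor upstream of mTORC1, fell by 0.51 (adjusted p = 0.00112). Slc43a2 and Slc38a9 were named after their values were seen. Of the 10 amino acid carriers at 10 CPM per kb or more, 5 rose and 1 fell, and of the 21 below that level 2 rose and 6 fell. Shares of all tested genes that rose or fell on each side of this level are not given here. Among all tested genes the share past the adjusted p in either direction was larger at higher levels. The counts are thus descriptions only, and a link between level and direction was not tested.

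**Figure D2:**
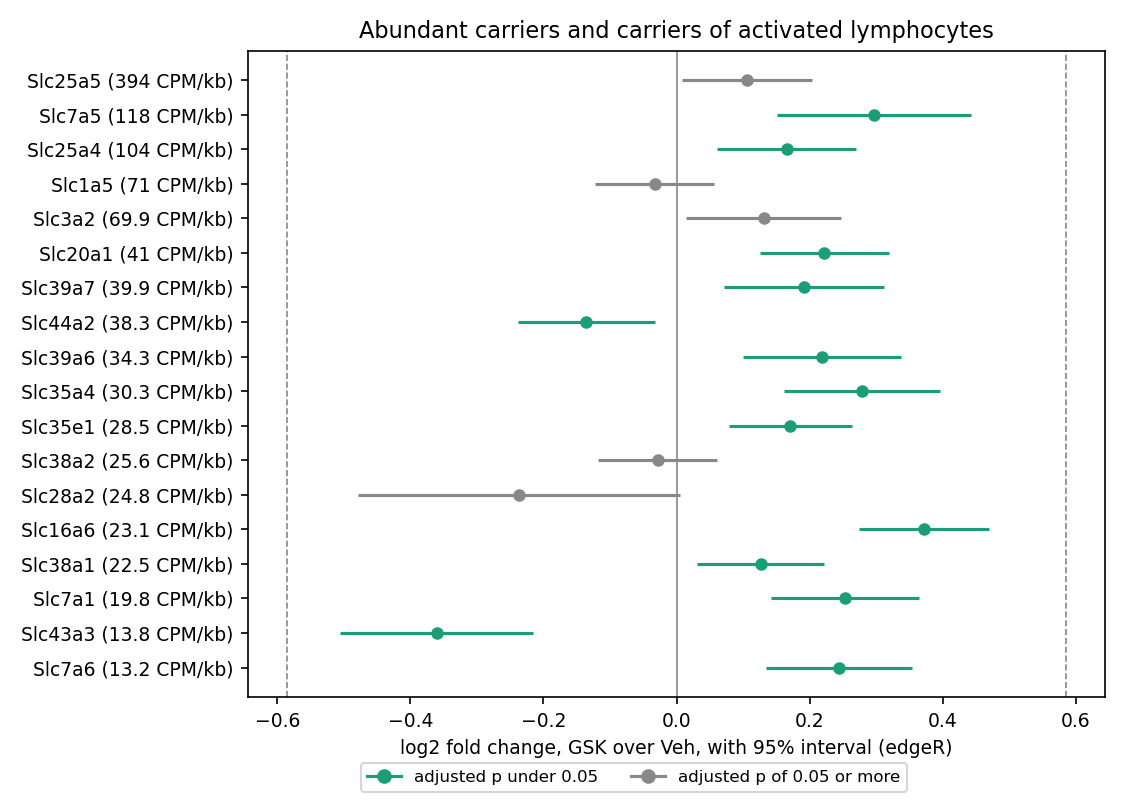
Log2 fold change (GSK over Veh) with its 95% interval from edgeR for the 18 carriers at 12 CPM per kb or more among the most abundant of each group and the amino acid and nucleobase carriers of activated lymphocytes, ordered by level in CPM per kb, with dashed lines at a fold change of 1.5. All 18 intervals stay within 1.5-fold; Slc7a5, Slc7a1 and Slc16a6 lie above 0, Slc43a3 lies below it, and Slc1a5 and Slc38a2 span it.

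The 36 mitochondrial carriers of the Slc25 family all stayed within 1.5-fold, as did 90.3% of all tested genes. Of the 36, 0 were called by edgeR or by DESeq2, where edgeR called 6.32% of all tested genes. At an unadjusted p under 0.05, 6 were above and 8 below Veh, and the share of all tested genes at that p is not given here. At the adjusted p 5 rose and 7 fell. That is 13.9% and 19.4%, against 16.6% and 15.5% of all tested genes. Slc25a5 and Slc25a4, the exchangers of ADP and ATP, were the most abundant of the family at 394 and 104 CPM per kb, and Slc25a5 of all 195 genes. Slc25a5 did not pass (log2 0.11, 95% interval 0.0087 to 0.20, adjusted p = 0.0888), and Slc25a4 rose from 232 ± 13.5 to 260 ± 7.52 CPM (log2 0.17, adjusted p = 0.0195) but did not pass without GSK replicate 1, GSK replicate 3 or Veh replicate 1 (adjusted p = 0.0792, 0.0584 and 0.1000). Slc25a32, which brings folate into the mitochondrion, rose from 22.8 ± 0.826 to 31.9 ± 2.75 CPM (log2 0.49, adjusted p = 0.000652). Slc25a22, a glutamate carrier, rose by a log2 fold change of 0.39 (adjusted p = 0.00141). The pyrimidine nucleotide carrier Slc25a36 fell by 0.34 (adjusted p = 0.00220) and Slc25a45 also by 0.34 (adjusted p = 0.00378).

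Among the 27 carriers of nucleotide sugars and sugar phosphates, 7 rose and 2 fell, and both that fell were called. Called lower were thus 7.41% of the group, against 4.09% of all tested genes. The shares that rose and fell were 25.9% and 7.41%, against 16.6% and 15.5% of all tested genes. Slc37a4 (chr9:44396852-44402968), which brings glucose 6-phosphate into the endoplasmic reticulum, was at 61.6, 58.3 and 64.3 CPM in Veh and at 40.9, 39.8 and 34.8 in GSK. The groups were far apart, and it fell by 0.67 (SE 0.070, adjusted p = 2.75e-05). At 17.5 CPM per kb it was the only called carrier above the median level. Slc35f5 (chr1:125560595-125595820), a member of the nucleotide sugar family, was at 4.90, 3.97 and 5.47 CPM in Veh and at 3.097, 2.23 and 2.66 in GSK, and fell by 0.84 (SE 0.21, adjusted p = 0.00751). The 7 that rose all belong to Slc35, which has 22 members here. Slc35b1, the exchanger of ATP and ADP of the endoplasmic reticulum, was at 41.9, 42.5 and 44.0 CPM in Veh and at 62.8, 56.4 and 69.9 in GSK and came near the fold threshold (1.47-fold, log2 0.56, adjusted p = 0.000154). Slc35d1, a carrier of UDP-glucuronic acid and UDP-N-acetylgalactosamine, rose 1.44-fold (log2 0.52, adjusted p = 0.000437). The abundant Slc35a4 and Slc35e1 rose by log2 fold changes of 0.28 (adjusted p = 0.00204) and 0.17 (adjusted p = 0.00894).

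In the 13 carriers of hexoses, polyols and carboxylates, which here lack the 5 carriers of the Slc2 and Slc16 families left out by name, 2 rose and 1 fell. That is 15.4% and 7.69%, against 16.6% and 15.5% of all tested genes. The 3 that passed belong to Slc16. Slc16a6 (MCT7), the most abundant, was at 96.1, 101 and 98.1 CPM in Veh and at 126, 125 and 131 in GSK, and rose 1.29-fold (log2 0.37, adjusted p = 8.83e-05). Slc16a5 (chr11:115462474-115474398), another monocarboxylate transporter, was at 3.32, 1.88 and 2.21 CPM in Veh and at 4.46, 4.15 and 4.43 in GSK, and rose 1.76-fold (log2 0.82, SE 0.23, adjusted p = 0.0147), with exons of Gm11695 overlapping it on the opposite strand. Slc16a10 (TAT1, chr10:40033532-40142258), which despite its family carries aromatic amino acids, was at 3.75, 4.18 and 5.47 CPM in Veh and at 3.097, 1.62 and 3.29 in GSK, and fell by 0.75 (SE 0.26, adjusted p = 0.0435). For these low genes the groups did not overlap but came close to each other. Slc16a13, the next most abundant, was at 9.58 ± 1.69 CPM in Veh and 9.73 ± 0.485 in GSK (log2 0.02, adjusted p = 0.919).

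Of the 23 metal carriers 8 rose, or 34.8%, against 16.6% of all tested genes, and 2 fell, or 8.70%, against 15.5%. Of the 11 zinc importers of the Slc39 family 5 rose, or 45.5%, and 0 fell, beside the same shares of all tested genes. No test of this family as a set was made. The endoplasmic reticulum carrier Slc39a7 rose from 96.2 ± 5.83 to 110 ± 5.39 CPM (log2 0.19, adjusted p = 0.0190). Slc39a6 rose by a log2 fold change of 0.22 (adjusted p = 0.00920) and Slc39a14, which also carries iron and manganese, by 0.33 (adjusted p = 0.00205). Slc39a7 passed in only 2 of the 6 fits that left out a sample, not without GSK replicate 1, GSK replicate 3, Veh replicate 1 or Veh replicate 3 (adjusted p = 0.0735, 0.0649, 0.0872 and 0.0747), and Slc39a6 did not without Veh replicate 3 (adjusted p = 0.0529). Of the 6 zinc exporters of Slc30, 2 rose, or 33.3%, and 1 fell, or 16.7%, the latter Slc30a9 (log2 -0.23, adjusted p = 0.00921). The called gene of the group was Slc41a2 (chr10:83230848-83337882), a magnesium carrier, at 3.75, 3.70 and 6.31 CPM in Veh and at 2.36, 2.68 and 2.35 in GSK. It fell by 0.90 (SE 0.24, adjusted p = 0.0123), Veh replicate 3 stood above the other Veh samples, and without that sample the adjusted p was 0.0715.

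Among the 28 carriers of ions 2 were called, both higher, and in all 4 rose and 4 fell. Of the group 7.14% were called higher, against 2.22% of all tested genes. At the adjusted p alone 14.3% rose and 14.3% fell, against 16.6% and 15.5%. Slc4a10 (chr2:62046462-62326730), a sodium-driven bicarbonate transporter best known from neurons and the first of the promoters above, was at 0.979, 2.36 and 0.893 CPM in Veh and at 4.36, 5.82 and 6.57 in GSK. Every GSK sample was above every Veh sample, and the fold change of 3.95 was the largest of the called carriers (log2 1.98 ± 0.32 SE, 95% interval 1.27 to 2.69, adjusted p = 0.000969). Slc24a3 (chr2:145167754-145642166), a potassium-dependent exchanger of sodium for calcium, was at 2.34, 2.74 and 2.37 CPM in Veh and at 3.78, 4.00 and 5.11 in GSK, and rose 1.73-fold (log2 0.79, SE 0.20, adjusted p = 0.0105). The phosphate carrier Slc20a1, the most abundant of the group, rose from 211 ± 10.2 to 247 ± 3.89 CPM (log2 0.22, adjusted p = 0.00257). The mitochondrial calcium exchanger Slc8b1 was at 11.6, 11.2 and 11.9 CPM in Veh and at 8.19, 8.71 and 8.50 in GSK and fell by 0.45 (adjusted p = 0.00675). Of the named carriers under 1.5-fold, Slc16a6 and Slc39a7 overlap exons of another gene on the same strand, and Slc16a6, Slc20a1, Slc29a1, Slc35a4, Slc43a2 and Slc38a9 on the opposite one.

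Of the 34 carriers of nucleosides, vitamins, lipids and organic ions 6 rose and 5 fell. Called lower were 2, or 5.88%, against 4.09% of all tested genes. The shares that rose and fell were 17.6% and 14.7%, against 16.6% and 15.5% of all tested genes. Slc27a1 (FATP1, chr8:71568882-71587302), which brings in long-chain fatty acids, was at 13.4, 11.3 and 13.2 CPM in Veh and at 6.04, 6.12 and 6.21 in GSK. The GSK values lay close together and far below Veh, and the gene fell by 1.04 (SE 0.12, adjusted p = 6.43e-05), to 0.485 of Veh. Slc14a1, a urea transporter, was at 13.2, 10.1 and 10.6 CPM in Veh and at 8.45, 7.95 and 5.84 in GSK, and fell by 0.61 (SE 0.16, adjusted p = 0.0104). Slc29a1 (ENT1), an equilibrative nucleoside transporter, rose from 79.2 ± 2.22 to 98.6 ± 5.67 CPM (log2 0.32, adjusted p = 0.000859), and the thiamine transporter Slc19a2 from 26.8 ± 1.28 to 35.4 ± 1.08 (log2 0.40, adjusted p = 0.000888). The organic anion carrier Slco3a1 fell by 0.28 (adjusted p = 0.00471) and the choline carrier Slc44a2, the most abundant of the group, fell by 0.14 (adjusted p = 0.0446). Slc44a2 passed only without GSK replicate 2 when each sample was left out in turn (adjusted p from 0.0163 to 0.208), and not without robust moderation (0.0529). Of the 3 genes that are not carriers, Slc9a3r1 (log2 0.20, adjusted p = 0.00305) and Slc4a1ap (log2 0.38, adjusted p = 0.000629) rose, and Slc7a6os did not pass (adjusted p = 0.304).

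**Figure D3:**
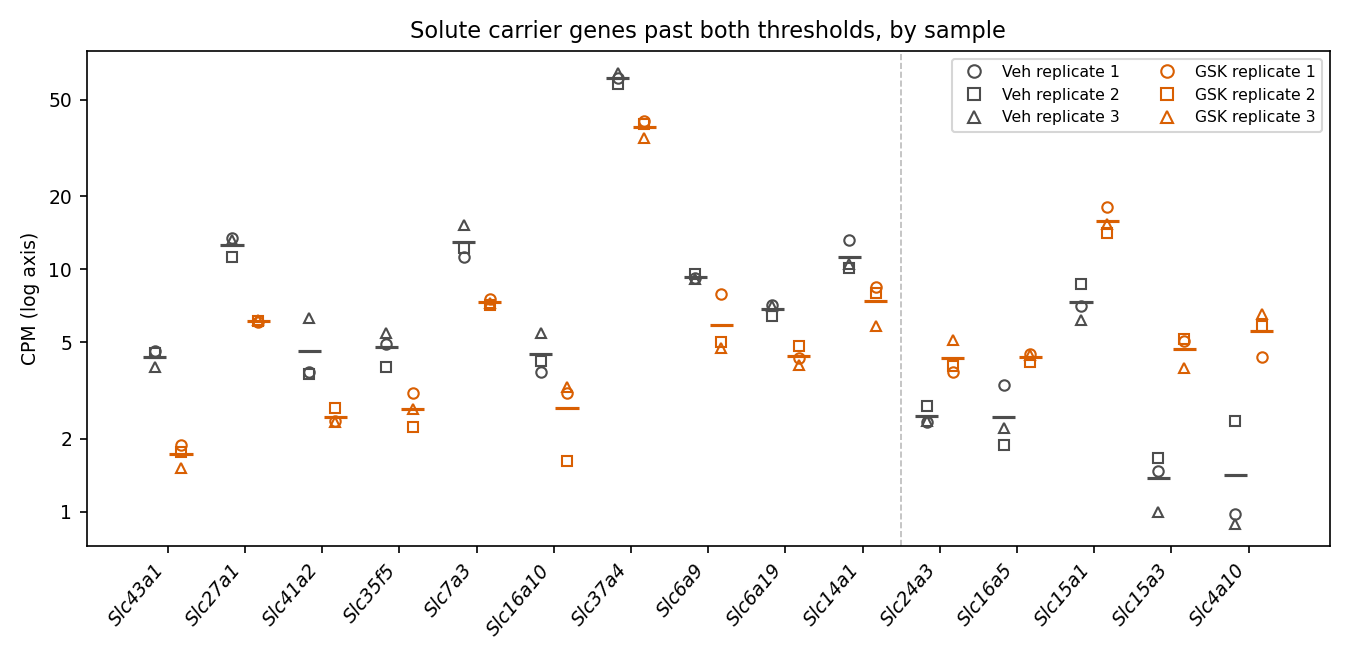
CPM (log axis) of the 15 called carriers in each of the 6 samples, with a bar at each group's mean and a dashed line between genes lower and genes higher in GSK. Groups do not overlap for any of the 15, from Slc43a1 with Veh at 3.94 to 4.62 and GSK at 1.51 to 1.89 on the left to Slc4a10 with Veh at 0.893 to 2.36 and GSK at 4.36 to 6.57 on the right.

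The groups did not overlap for any of the 15 called carriers, so GSK replicate 3 lay beyond all Veh samples in the called direction. That position is thus not a separate check of the calls. With GSK replicate 3 alone against Veh, Slc16a10 had the smallest log2 fold change of the 15 (-0.44) and was under 1.5-fold. When each sample was left out in turn, Slc4a10, Slc15a3, Slc15a1, Slc43a1, Slc27a1, Slc35f5, Slc7a3, Slc37a4 and Slc6a19 were called each time, and the other 6 lost the call at least once. Slc16a10 lost it without GSK replicate 1, GSK replicate 2, Veh replicate 2 or Veh replicate 3 (adjusted p = 0.0678, 0.113, 0.0728 and 0.168), Slc16a5 without GSK replicate 1, Veh replicate 2 or Veh replicate 3 (0.0542, 0.0586 and 0.0549), and Slc41a2 without GSK replicate 1 or Veh replicate 3 (0.0510 and 0.0715). Slc24a3 lost it without GSK replicate 3 (0.0513) and Slc14a1 without Veh replicate 1 (0.0581), while Slc14a1 without GSK replicate 3 (log2 -0.46) and Slc6a9 without GSK replicate 2 or 3 (log2 -0.56 and -0.54) came under the fold threshold.

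Beside the called carriers, 6 were past 1.5-fold without passing the adjusted p, and they were named after their values were seen. In 3 of them GSK replicates 1 and 2 were under 50% of the lowest of the other samples, the pattern of the kidney genes, which 0.325% of tested genes showed and 1.54% of the carriers. Of the 3, Slc34a1 and Slc12a3 are on the kidney list, which was written after the values were seen. Their match with its pattern is thus not independent of the list, and the 2 shares are descriptions only. Slc34a1, the sodium phosphate cotransporter of the kidney proximal tubule, was at 1.79, 1.56 and 1.63 CPM in Veh, at 0 in GSK replicates 1 and 2, where 3 counts would have been 0.157 and 0.152 CPM, and at 3.13 in GSK replicate 3 (adjusted p = 0.762). Slc27a2 (FATP2), a fatty acid carrier of liver and kidney, was at 2.01, 1.40 and 2.26 CPM in Veh and at 0.105, 0 and 2.40 in GSK (adjusted p = 0.509). Slc12a3, the sodium chloride cotransporter of the distal tubule, was at 1.63, 1.72 and 1.47 CPM in Veh and at 0.682, 0.658 and 1.72 in GSK (adjusted p = 0.203). For these 3 genes GSK replicate 3 was not below any Veh sample and the other 2 GSK samples were below all of them.

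**Figure D4:**
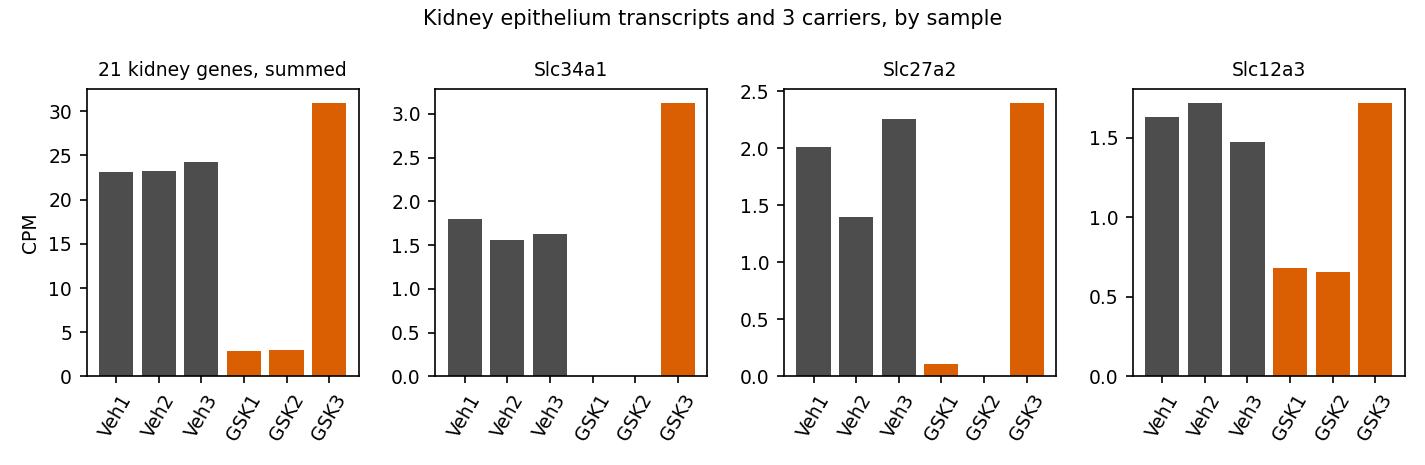
CPM by sample (bars from 0, no error bars since each bar is 1 sample) of 21 kidney genes summed and of Slc34a1, Slc27a2 and Slc12a3. The summed list is at 23.1 to 24.2 in Veh and 31.0 in GSK replicate 3 and at 2.83 and 3.04 in GSK replicates 1 and 2, and the 3 carriers are low in the same 2 samples. The sum includes Slc34a1 and Slc12a3.

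The other 3 were not of that kind. Slc28a2b, a gene near-identical to the purine nucleoside carrier Slc28a2, was at 35.4, 18.1 and 19.3 CPM in Veh and at 9.61, 12.1 and 6.78 in GSK. The groups did not overlap, the log2 fold change was -1.35 (95% interval -2.32 to -0.38) and the adjusted p was 0.0508, against 0.00464 in DESeq2. Slc28a2 itself was at 113 ± 10.7 CPM in Veh and 95.6 ± 12.7 in GSK (log2 -0.24, adjusted p = 0.123), and the split of reads between the 2 copies is uncertain. Slc7a7 (y+LAT1), whose exons overlap Oxa1l on the opposite strand, was at 1.85, 0.912 and 2.05 CPM in Veh and at 2.83, 1.97 and 2.97 in GSK (log2 0.69, adjusted p = 0.104). Slc15a2, given above, was the last of them.

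Other transport genes were taken from lists by name. Of 37 carriers outside the Slc naming, 29 were tested, and 1 was called higher and 4 lower (6 rose and 6 fell at the adjusted p alone, median log2 fold change 0.032). That is 3.45% called higher and 13.8% lower, against 2.22% and 4.09% of all tested genes. At the adjusted p alone 20.7% rose and 20.7% fell, against 16.6% and 15.5% of all tested genes. Mfsd2a, a carrier of lysophosphatidylcholine, rose from 9.21 ± 0.622 to 14.3 ± 1.87 CPM (log2 0.64, adjusted p = 0.00169). Spns2, the exporter of sphingosine 1-phosphate, was at 0.732 ± 0.194 CPM in Veh and 0.154 ± 0.100 in GSK (log2 -2.19, adjusted p = 0.00985), and its relative Spns3 at 0.784 ± 0.218 and 0.225 ± 0.258 (log2 -1.78, adjusted p = 0.0426). Nipa1 (log2 -1.06, adjusted p = 0.0301) and Nipal1 (log2 -0.91, adjusted p = 0.000888), of a family of magnesium carriers, were the other genes called lower, while their relatives Nipa2 (log2 0.12, adjusted p = 0.221) and Nipal3 (log2 -0.25, adjusted p = 0.00480) were not called. Of 16 partners and regulators of carriers, 0 were called by edgeR or by DESeq2, where edgeR called 6.32% of all tested genes. At an unadjusted p under 0.05, 6 were above and 3 below Veh, and the share of all tested genes at that p is not given here. At the adjusted p alone 5 rose and 3 fell, or 31.25% and 18.75%, against 16.6% and 15.5% of all tested genes. Of 22 tested ATP-binding cassette transporters, which do hydrolyse ATP, 2 were called, both lower, Abca3 (log2 -0.66, adjusted p = 2.66e-05) and Abcg1 (log2 -0.67, adjusted p = 0.00729), and at the adjusted p alone 1 rose and 8 fell. That is 9.09% called lower, against 4.09% of all tested genes, with 4.55% that rose and 36.4% that fell, against 16.6% and 15.5%. No test of these lists as sets was made. Of the 18 tested Slc genes under the count minimum, 1 was called, lower in GSK, where 4.09% of all tested genes were called lower.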

How the data were processed

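RNA of 3 GSK and 3 Veh samples was analysed from 1 deposited table of whole counts per gene, not normalized. The authors trimmed the reads, mapped them to GRCm38 with HISAT2 (version 2.1.0) and counted them per gene with HTSeq (version 0.11.2). The annotation release and the strand setting of the counting are not given in the sources used here. Of the 195 genes, 55 have exons that overlap another gene on either strand in GENCODE M21. The table also holds annotation text, which was not tested.

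GSK was compared with Veh by the robust quasi-likelihood test of edgeR (version 4.0.16, in R 4.3.3), with TMM scaling, filterByExpr and p adjusted by Benjamini-Hochberg over the 11698 genes that remained. The study's thresholds, a fold change over 1.5 and an adjusted p under 0.05, were used. Standard errors and 95% intervals were derived from the test statistic. CPM per kb divide CPM by the summed exon length of GENCODE M21. Replicates of a group differed by more than sampling noise (chi-square over its degrees of freedom 4.08 to 9.42). On simulated counts for 11599 genes, 200 of those with a mean of at least 5 CPM were changed by a log2 fold change of 1. The test recovered 99.5% of them with 2 false calls. Recovery of genes under 5 CPM, as many called carriers are, or of smaller changes was not simulated.

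Each Slc family was put as a whole into 1 of 7 groups by what it is known to carry. Named genes were the called ones, the 2 most abundant of each group, 8 carriers of activated lymphocytes, those with the 2 smallest p in each group and direction, and the 4 nearest the count minimum, apart from some that are not reported here. The members, groups and lists were chosen with earlier results of these data known. Alternatives were DESeq2 (version 1.42.0), scaling by RLE, a stricter and no filter on low counts, no robust moderation, glmTreat at 1.5-fold, the replicate number as a block, a count minimum of 50, leaving out each sample and, added after seeing the data, GSK replicate 3 alone. Floors and counts of 0 cover counting error only.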

Additional observations from a re-analysis of the deposited data

How the results depend on the processing

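Under DESeq2, RLE size factors, either other filter on low counts and the replicate block all 15 called carriers were called, and a count minimum of 50 left 5 called higher and 10 lower. A test of the fold change itself against 1.5 called 3 higher (Slc4a10, Slc15a3 and Slc15a1) and 2 lower (Slc43a1 and Slc27a1), and without robust moderation Slc16a10 was lost (adjusted p = 0.0513). With each sample left out in turn, 4 to 6 carriers were called higher and 8 to 11 lower, 26 to 47 rose and 19 to 31 fell at the adjusted p alone, and the median log2 fold change ran from 0.014 to 0.044. The count of 26 came without GSK replicate 1, without GSK replicate 3 and without Veh replicate 3, and that of 47 without GSK replicate 2, and the cause was not tested. GSK replicate 3 alone against Veh, where that lone sample is assumed to vary like the Veh samples, gave a median of 0.034. Shares of all tested genes in these alternative fits are not given here. DESeq2 called 5 higher and 12 lower, with 35 and 28 past the adjusted p.

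The replicate number was not used as a pairing, because the labels do not say which samples share a mouse. Deviations of same-numbered GSK and Veh samples from their group means had correlations of -0.052, -0.081 and 0.16. These values cannot show whether same-numbered samples share a mouse, which is not known. With the number as a replicate block 5 carriers were called higher and 11 lower, 38 rose and 27 fell, the median was 0.030, and Slc38a1 (adjusted p = 0.0825) and Slc44a2 (0.0617) no longer passed.

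Of the named genes, those that changed direction passed no threshold in any of these fits. With GSK replicate 3 alone the log2 fold change was -0.022 for Slc16a13, 0.033 for Slc1a5 and 0.0086 for Slc36a3. With each sample left out it ran from -0.068 (without Veh replicate 2) to 0.18 (without Veh replicate 3) for Slc16a13, from -0.30 (without Veh replicate 2) to 0.16 (without Veh replicate 3) for Slc36a3, and from -0.041 (without GSK replicate 3) to 0.65 (without GSK replicate 2) for Slc5a8. The cause was not tested. Depth limits the carriers near a mean count of 20, whose fold changes have standard errors of 0.33 (Slc36a3) and 0.38 (Slc5a8) on the log2 scale.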
